A study of Arabidopsis thaliana with 2 samples.

Results

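Of 147349 matched SNP windows in developing Arabidopsis seeds, 560 had at least 4 times more maternal matches with a Col-0 than a Bur-0 mother. Matches were scaled to the library total. These 560 windows are called Col-0-high below. A window is a stretch of 71 nt centred on a SNP between the accessions Col-0 and Bur-0, and a match is a 36-nt read assigned to the Col-0 or the Bur-0 version of that stretch. The Col-0-high windows were chosen by the values themselves. A window needed at least 10 matches in each cross, at least 90% maternal matches in both, and no other matched SNP within 35 nt, so that no read could cover both SNPs. It also needed at least 4 times more maternal matches per 1000000 library matches, written CPM below, with a Col-0 mother than with a Bur-0 mother. All criteria but the last were met by 26206 windows, the eligible windows, and 2.14% of these were Col-0-high. Since the ratio selected the windows, its size is a description and carries no test.

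Whole seeds were collected 4 days after pollination (DAP) from reciprocal crosses of Arabidopsis thaliana, named with the mother first. In Col-0×Bur-0 a Col-0 flower received Bur-0 pollen, and in Bur-0×Col-0 a Bur-0 flower received Col-0 pollen. No other genotype or treatment was involved, flowers of both crosses were emasculated and pollinated by hand, and each cross gave 1 mRNA library from the pooled seeds of at least 40 siliques, read on 4 lanes. With 1 library per cross there is no biological replicate, so no test between the crosses was made. Lanes are treated as repeats of the sequencing, not of plants. Lane 1 of Col-0×Bur-0 differed from the other lanes by more than counting error, as described below. Every interval below is a 95% exact interval that covers counting error only.

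A seed at this stage holds a seed coat grown from the mother alone, an endosperm with a double maternal genome dose, and an embryo with an equal dose from both parents. A transcript made only in the seed coat is therefore fully maternal in both crosses, as is a transcript loaded from the ovule or made from an imprinted maternal allele. A fully maternal transcript carries the Col-0 allele in one cross and the Bur-0 allele in the other, and its 2 levels set mothers of different accessions side by side. In whole seeds, a smaller share of a tissue and less RNA per cell cannot be told apart, nor can the genotype of the mother and the allele she transmits. The 2 levels are also counts of matches to different versions of a window. The accession of the mother and how readily reads of her allele match cannot be told apart either.

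The libraries held 6773239 matches for Col-0×Bur-0 and 8576779 for Bur-0×Col-0, with 1295748 to 2313110 per lane, from 121894863 and 129251366 reads searched. The reads searched are as recorded with the deposited matches. The study states more reads in total for Col-0×Bur-0 than for Bur-0×Col-0, the reverse order, and this difference was not resolved. The ratio of a window was not centred on 1. Its median over the eligible windows was 1.44, with quartiles of 1.09 and 1.91, a shift of 0.53 on the log2 scale, and the limit of 4 lay 2.77 times above this median. The median depended on the next matched SNP. It was 0.52 where that SNP lay 1 to 10 nt away, 0.733 at 11 to 20 nt, 1.09 at 21 to 35 nt and 1.42 to 1.46 in the 4 classes beyond 35 nt. Windows at least 4 times higher with a Bur-0 mother numbered 58, or 0.221% of the eligible windows, so that 90.6% of the windows past either limit were Col-0-high. With the median ratio of the eligible windows set to 1, the count was 191 Col-0-high against 169 windows, and the share was 53.1%. This setting evens out both sides by construction. Scaled by reads searched the share was 77.3%, and by matches in isolated windows 66.9%. The size of the excess of Col-0-high over Bur-0-high windows thus varied with the scaling, whereas the order of the windows did not.

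Most Col-0-high windows lay near the limit. Their ratio ran from 4.00 to 34.2 with a median of 5.02 and quartiles of 4.34 and 6.57. The ratio reached 5 in 283, 8 in 85, 10 in 57 and 20 in 12 windows. The windows just inside the limit had 196 against 62, 76 against 24 and 38 against 12 maternal matches, and those just outside had 60 against 19 at a pair of windows and 120 against 38. The lower bound of the interval reached 4 in 155 windows, and the lowest bound of all was 1.88, against the eligible median of 1.44. Since the windows were selected for a ratio of at least 4, bounds above this median follow largely from the selection.

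**Figure D1:**
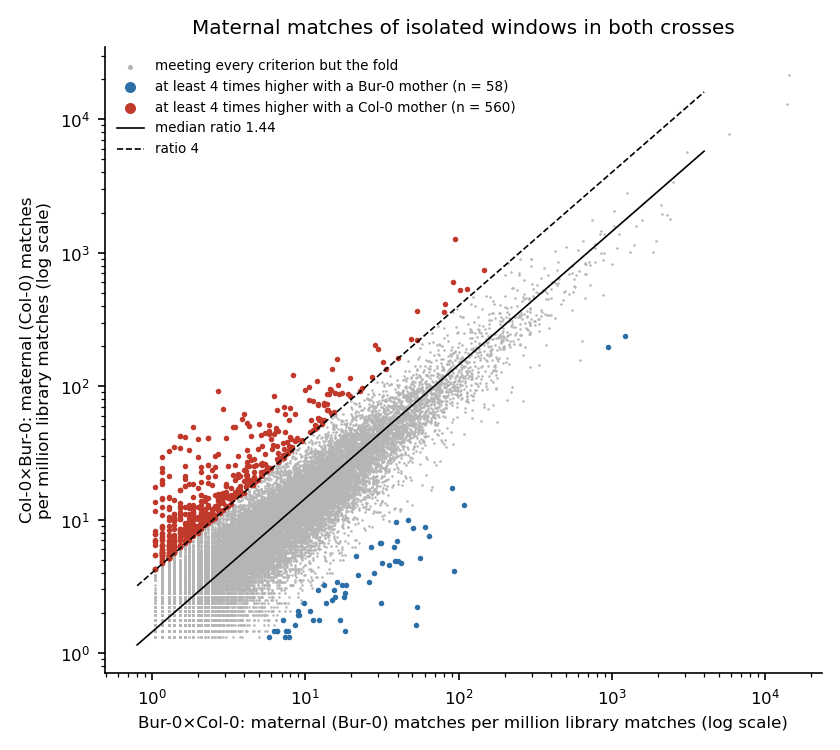
Maternal CPM of each eligible window, in Bur-0×Col-0 on the horizontal and in Col-0×Bur-0 on the vertical axis, both on a log scale. The 560 Col-0-high windows (red) lie on or above the broken line of ratio 4 at all depths, the 58 windows at least 4 times higher with a Bur-0 mother are blue, and the cloud follows the solid line of the median ratio 1.44.

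In maternal matches, the Col-0-high windows ranged from 29 to 8590 with a Col-0 mother, the median being 86, and from 9 to 1256 with a Bur-0 mother, the median being 18. Together they held 120793 maternal matches against 25678, which was 1.79% and 0.305% of the library matches, paternal matches included. Few windows carried much of this: the 15 windows with 1000 or more maternal matches in Col-0×Bur-0 held 34.4% of that sum, and 316 windows had 100 or fewer.

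The paternal allele of the same windows was almost not seen. Over all 560 windows, 466 paternal matches were counted with a Col-0 mother and 478 with a Bur-0 mother, and the maternal share was 99.6% and 98.2%, within the selection at 90%. The Col-0 allele amounted to 17834 CPM when it came from the mother and 55.7 when it came from the father. The Bur-0 allele amounted to 2994 and 68.8 CPM. Paternal matches were absent in 361 windows in Col-0×Bur-0 and 316 in the reverse cross. A count of 0 allows a paternal share of up to 3.61% at the median depth of such windows in Col-0×Bur-0, 83 matches, but of up to 17.6% at 17 matches in Bur-0×Col-0.

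Gene names could be given to a part of the windows. Of the Col-0-high windows, 220 fell in 153 loci whose span was placed, and 340 lay outside placed loci and are given by position only. The placed loci are among those with the most matches, so the named genes lean towards abundant transcripts. Coordinates are those of the TAIR8 sequence, and whether a window lies in an exon or a UTR was not determined here. All isolated windows of a locus, that is, those with no matched SNP within 35 nt and at least 10 matches in each cross, were also summed, and the ratio of these sums is called the locus ratio. Its median was 1.42 over 1949 placed loci, of which 26, or 1.33%, reached 4. It was 0.906 to 23.4 with a median of 2.15 over the 153 loci with a Col-0-high window. In 21 of these loci it reached 4, in 65 it lay between 2 and 4, and in 67 it was below 2, 23 of which were below 1.5. With the eligible median set to 1, 11 of the 21 still reached 4, whereas MBP1, SCPL11, RLK7, SULTR2;1 and AT2G02780, described below, fell to between 2.85 and 3.76. The locus ratio contains the selected windows. Among the 121 loci with at least 2 other isolated windows, the median ratio of these others was at least 4 in 0 loci, between 2 and 4 in 51 and under 2 in 70, with a median of 1.84 over the loci. Leaving out the selected windows removes the high ones by construction, so these values lean low.

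Genes in which every isolated window was Col-0-high came first. PMEPCRA (AT1G11580, chromosome 1), a pectin methylesterase, which removes methyl groups from cell wall pectin, had all of its 5 isolated windows above the limit, with ratios from 9.22 to 14.7. The windows had 382, 577, 337, 743 and 633 maternal matches with a Col-0 mother against 33, 54, 29, 102 and 85 with a Bur-0 mother, and 1 and 0 paternal matches in all. The locus ratio was 11.2 (9.91 to 12.6). By lane, PMEPCRA had 281, 450, 431 and 426 maternal CPM against 27.8, 41.3, 33.3 and 39.8, so that the lanes of the crosses did not come near each other.

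EXLA1 (AT3G45970, chromosome 3) belongs to the expansin-like proteins, relatives of the expansins that loosen cell walls. Both of its isolated windows were Col-0-high, with 1370 and 4084 maternal matches against 243 and 785, ratios of 7.14 and 6.59 and a locus ratio of 6.72 (6.28 to 7.19). Its CPM were 1030, 706, 719 and 748 over the lanes with a Col-0 mother and 127, 119, 113 and 121 over those with a Bur-0 mother. EXLA1 had more maternal matches over its Col-0-high windows than any other placed locus but TT7, described below.

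The largest locus ratio was that of AT4G22050, which lies on chromosome 4 and has no symbol in the gene table used. Its 3 isolated windows had 170, 288 and 335 maternal matches in Col-0×Bur-0 against 14, 13 and 16 in Bur-0×Col-0. The ratios were 15.4, 28.1 and 26.5, and the locus ratio was 23.4 (17.2 to 32.5). A single paternal match was counted over the 3 windows with a Col-0 mother and 0 with a Bur-0 mother. The lanes gave 96.7 to 147 CPM with a Col-0 mother and 4.34 to 5.62 with a Bur-0 mother.

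ULI3 (AT5G59920, chromosome 5), named for a mutant insensitive to UV-B light, held the longest run of Col-0-high windows. All of its 8 isolated windows, which start between 24146056 and 24148023, were Col-0-high, with ratios from 4.79 to 13.1. They summed to 811 maternal matches against 149, with a locus ratio of 6.89 (5.78 to 8.26). Each single window was shallow, with 61 to 145 matches against 10 to 26, and 1 of the 8 had starts on one side in Bur-0×Col-0 only.

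MBP1 (AT1G52040) and MBP2 (AT1G52030) encode myrosinase-binding proteins, which associate with the enzyme that hydrolyses glucosinolates, and adjoin each other on chromosome 1. In MBP1 all 4 isolated windows were Col-0-high, with 638, 602, 431 and 505 maternal matches against 127, 135, 132 and 114 and a locus ratio of 5.42 (4.92 to 5.99). In MBP2 only 2 of 16 isolated windows passed the limit, at 4.69 and 4.19. The MBP2 windows nevertheless lay mostly above the eligible median, from 1.23 to 4.69 with a median of 2.97 and a locus ratio of 2.74 (2.70 to 2.79). As related genes, the 2 could share reads where their sequences are alike.

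SULTR2;1 (AT5G10180, chromosome 5), a sulfate transporter, had 4 of 6 isolated windows past the limit. The 6 windows had 1280, 913, 1470, 1053, 606 and 1032 maternal matches against 256, 128, 729, 400, 148 and 276, ratios of 6.33, 9.03, 2.55, 3.33, 5.18 and 4.73. The locus ratio was 4.15 (3.95 to 4.37), and no paternal match was counted in either cross. The size of the difference thus varied 3.54-fold along a single gene. The interval of the locus ratio covers the counting error of the sums and does not measure this spread between windows.

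Further loci had most or all of their windows past the limit. AT5G10770 had all of 4 windows past the limit, 1252 against 156 maternal matches and a locus ratio of 10.2 (8.60 to 12.1). AT3G43960 also had 4 of 4 windows, 1508 against 256 matches and a ratio of 7.46 (6.53 to 8.55). MEE59 (AT4G37300), named for a mutant with maternal effect embryo arrest, had 2 of 2 windows, 740 against 94 matches and a ratio of 9.97 (8.03 to 12.5). AT1G12180 had 2 of 2 windows, 962 against 129 matches and a ratio of 9.44 (7.85 to 11.4). SCPL11 (AT2G22970), a serine carboxypeptidase-like protein, had 3 of 4 windows and a locus ratio of 4.89 (4.35 to 5.51). The receptor-like kinase RLK7 (AT1G09970, LRR XI-23) had 3 of 5 windows and 4.84 (3.83 to 6.17), and AT2G02780 had 3 of 4 windows and 4.11 (3.42 to 4.96). In all, every isolated window was Col-0-high in 15 loci, 11 of which had at least 2 such windows.

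The size of these locus ratios depended on how repeated matches were counted. When repeats at the same position and on the same strand within a lane were reduced to 1 match, which caps deep windows by construction, the locus ratio was more than 1.5 times lower in 15 of 32 named loci, and in 0 it was more than 1.5 times higher. The locus ratio of EXLA1 was then 2.07, that of MBP1 2.58, of SULTR2;1 1.96, of SCPL11 2.62, of AT1G12180 3.49 and of AT3G43960 3.88, all below 4. It remained above 4 in AT4G22050 at 9.17, PMEPCRA at 4.58, ULI3 at 4.55 and AT5G10770 at 4.46. MBP2 was then at 1.45 and, among the loci described next, ERD5 was at 1.46, BGAL5 at 1.39 and AT5G16220 at 2.25.

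**Figure D2:**
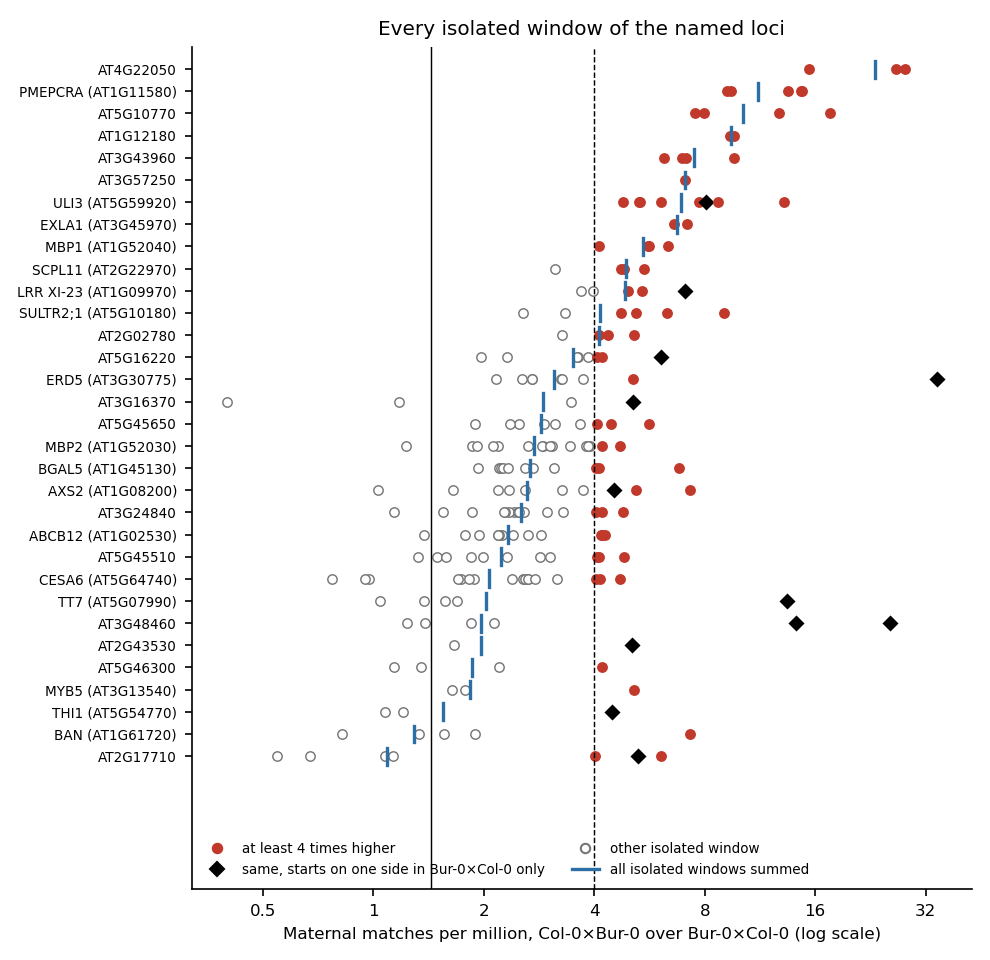
Ratio of maternal CPM, Col-0×Bur-0 over Bur-0×Col-0, of every isolated window (symbols) of the named loci (rows, by locus ratio), on a log scale with lines at the median of the eligible windows, 1.44, and at 4. Vertical bars give the locus ratio, which falls from 23.4 in AT4G22050 to 1.09 in AT2G17710, and black diamonds are Col-0-high windows whose matches started on one side in Bur-0×Col-0 only.

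A further group of loci was moderately high along its length, with some windows past the limit. BGAL5 (AT1G45130, chromosome 1), a beta-galactosidase, had 3 of 11 isolated windows past the limit. These had 351, 1494 and 2468 maternal matches in Col-0×Bur-0 against 110, 458 and 459 in Bur-0×Col-0, ratios of 4.04, 4.13 and 6.81, while the remaining 8 windows ran from 1.93 to 3.11. The 3 windows lay at both ends of the run, and the locus ratio was 2.68 (2.62 to 2.73).

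ERD5 (AT3G30775, chromosome 3) encodes proline dehydrogenase, which starts the breakdown of proline in mitochondria. It held the window with the largest ratio of all, chr3:12453614-12453684, with 622 maternal matches against 23 and a ratio of 34.2 (22.6 to 54.4). The other 8 isolated windows of ERD5 had ratios from 2.16 to 5.10, and its locus ratio was 3.12 (3.04 to 3.20). In the window with ratio 34.2 matches began at 34 of the 36 possible positions with a Col-0 mother and at 7 with a Bur-0 mother, whereas in the ERD5 window with ratio 5.10 all 36 positions were used in both crosses.

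Several further loci with 3 Col-0-high windows had locus ratios in the same range, but their windows varied widely. CESA6 (AT5G64740), a cellulose synthase subunit of the primary wall, had 3 of 17 windows past the limit and a locus ratio of 2.06 (1.93 to 2.21). AXS2 (AT1G08200), a UDP-apiose/UDP-xylose synthase, had 3 of 10 windows and 2.62 (2.48 to 2.77). ABCB12 (AT1G02530), an ABC transporter, had 3 of 13 windows and 2.33 (2.23 to 2.44). The unnamed loci AT5G45650, AT5G45510, AT3G24840 and AT5G16220 had 3 Col-0-high windows each among 9, 11, 16 and 8 isolated ones, with locus ratios of 2.87, 2.23, 2.53 and 3.50. The lowest window was at 0.772 in CESA6, 1.03 in AXS2, 1.38 in ABCB12, 1.32 in AT5G45510 and 1.14 in AT3G24840, all below the eligible median of 1.44.

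**Figure D3:**
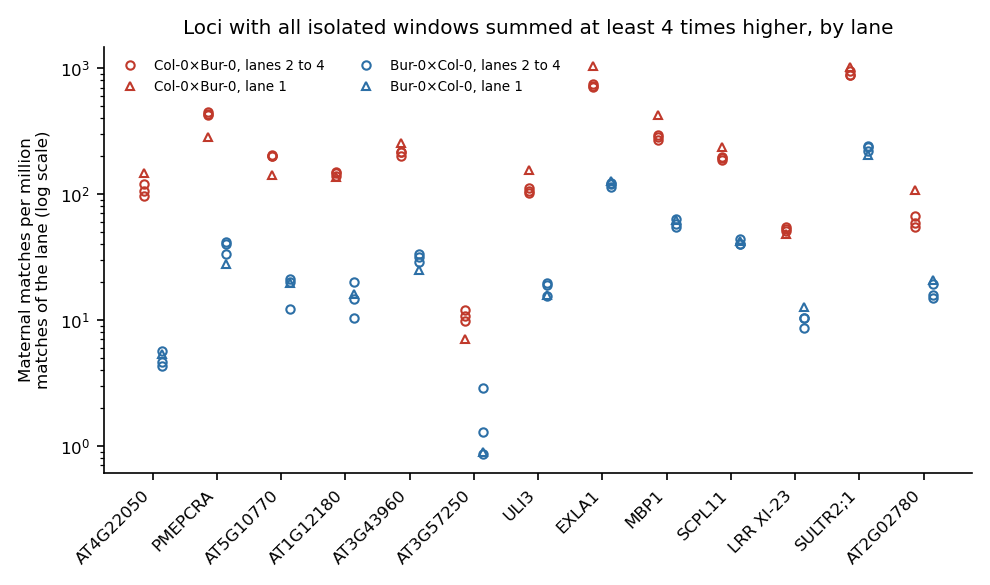
Maternal CPM, per lane (log scale), summed over the isolated windows, in the 4 lanes of Col-0×Bur-0 (red) and of Bur-0×Col-0 (blue), for the named loci with a locus ratio of at least 4. The loci were picked on the same lanes summed, and in each the 4 red symbols lie above the 4 blue ones. Lane 1 of Col-0×Bur-0 (red triangles) often stands apart from lanes 2 to 4, as in EXLA1 with 1030 against 706 to 748.

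In other loci 1 or a few windows were high while others of the same locus lay near or below the eligible median. The deepest Col-0-high window of all belonged to TT7 (AT5G07990, chromosome 5), the flavonoid hydroxylase of the B ring that acts in the pathway to seed coat pigment. This window, chr5:2562879-2562949, had 8590 maternal matches with a Col-0 mother against 809, a ratio of 13.4 (12.5 to 14.5). The remaining 4 isolated windows of TT7 had 2088, 3045, 5015 and 4731 matches against 1925, 2461, 3744 and 5733, the lowest ratio being 1.04 and the median over all 5 windows 1.57. The lowest of the 5 was the window 115 nt from the high one.

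The lanes of the TT7 window gave 1441, 1256, 1192 and 1147 maternal CPM with a Col-0 mother and 85.7, 101, 90.4 and 102 with a Bur-0 mother, and no lane of one cross came near those of the other. Its start positions differed as well. Matches began at all 36 positions with a Col-0 mother and at 9 with a Bur-0 mother, where 777 of the 809 matches began before position 18, counted from 0 at the left end of the window. In the other 4 windows of TT7 all 36 positions were used in both crosses.

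AT3G16370 (chromosome 3) and AT2G43530 (chromosome 2) showed the same combination. The window chr3:5556940-5557010 of AT3G16370 had 5068 maternal matches against 1256, a ratio of 5.11 (4.80 to 5.44), with 36 start positions against 7. All 1256 matches in Bur-0×Col-0 began before position 18, against 4029 of 5068 in Col-0×Bur-0. The next window of this locus, 359 nt away, had 1512 against 1628 matches and a ratio of 1.18. Its 3 other isolated windows ran from 0.400 to 3.46, and the locus ratio was 2.90 (2.78 to 3.03).

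In AT2G43530 the window chr2:18077617-18077687 had 2814 maternal matches against 701, a ratio of 5.08 (4.68 to 5.53), and all 701 began before position 18. Its other isolated window had 9332 against 7128 and a ratio of 1.66. THI1 (AT5G54770), which makes the thiazole part of thiamine, had 1 of 3 windows past the limit at 4.48, with 2432 against 687 maternal matches and starts mainly on one side in Bur-0×Col-0, while its other windows, with 2268 and 2176 against 2388 and 2555, lay below the eligible median. In AT3G48460, 2 of 6 windows passed the limit, both with starts on one side in Bur-0×Col-0 only, and the higher had 282 maternal matches against 14 and a ratio of 25.5 (15.0 to 47.3). The locus ratio of AT3G48460 was 1.96 (1.83 to 2.11).

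BAN (AT1G61720) encodes anthocyanidin reductase, which makes the precursors of the condensed tannins of the seed coat endothelium. Its Col-0-high window was shallow, with 75 against 13 maternal matches and a ratio of 7.31 (4.02 to 14.4). The 4 deep windows of BAN had 7714, 4040, 8359 and 9424 matches against 11890, 3847, 5603 and 7643 and ratios from 0.822 to 1.89. The BAN locus ratio was 1.29 (1.27 to 1.31). AT2G17710 had 3 of 7 windows past the limit at 4.02 to 6.06, but 4 windows between 0.548 and 1.13 and a locus ratio of 1.09 (1.06 to 1.12).

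The selection used the number of maternal matches but not where they began, and start positions were compared over all Col-0-high windows. The starts are those of the matches the selection counted, so the 2 are not independent. Fewer matches on one side in Bur-0×Col-0 raise the ratio, and the selection favours such windows. Matches began at a median of 22 of 36 positions with a Col-0 mother and 10, or 27.8%, with a Bur-0 mother, while the medians were 19 and 18 in the other eligible windows. Fewer matches alone give fewer positions. A second measure was therefore used: a window was called one-sided in a cross where at most 5% of its maternal matches began on the emptier side of the window, positions 0 to 17 or 18 to 35. In Bur-0×Col-0 only, 89 Col-0-high windows, or 15.9%, were one-sided, against 1.73% of the other eligible windows. In Col-0×Bur-0 only, 4 were one-sided, against 0.99%, and 34 were one-sided in both crosses. The share of the other eligible windows that were one-sided in both is not given here, so the 34 have no comparison.

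This share did not fall with depth. Among windows with fewer than 20 maternal matches in Bur-0×Col-0 it was 15.0% of the Col-0-high and 3.43% of the other windows, at 20 to 49 matches 15.2% and 2.02%, at 50 to 199 matches 18.8% and 1.04%, and at 200 or more 23.5% and 0.746%. The last class held 17 Col-0-high windows. Of the Col-0-high windows with a ratio of at least 8, 24.7% were one-sided in Bur-0×Col-0 only, and of those below 8, 14.3%. In 83 of the 89 windows not a single match in Bur-0×Col-0 began on the emptier side. The 89 windows held 28.0% of the maternal matches of all Col-0-high windows in Col-0×Bur-0. Of the 58 windows higher with a Bur-0 mother, 4 were one-sided in Bur-0×Col-0 only and 5 in Col-0×Bur-0 only.

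**Figure D4:**
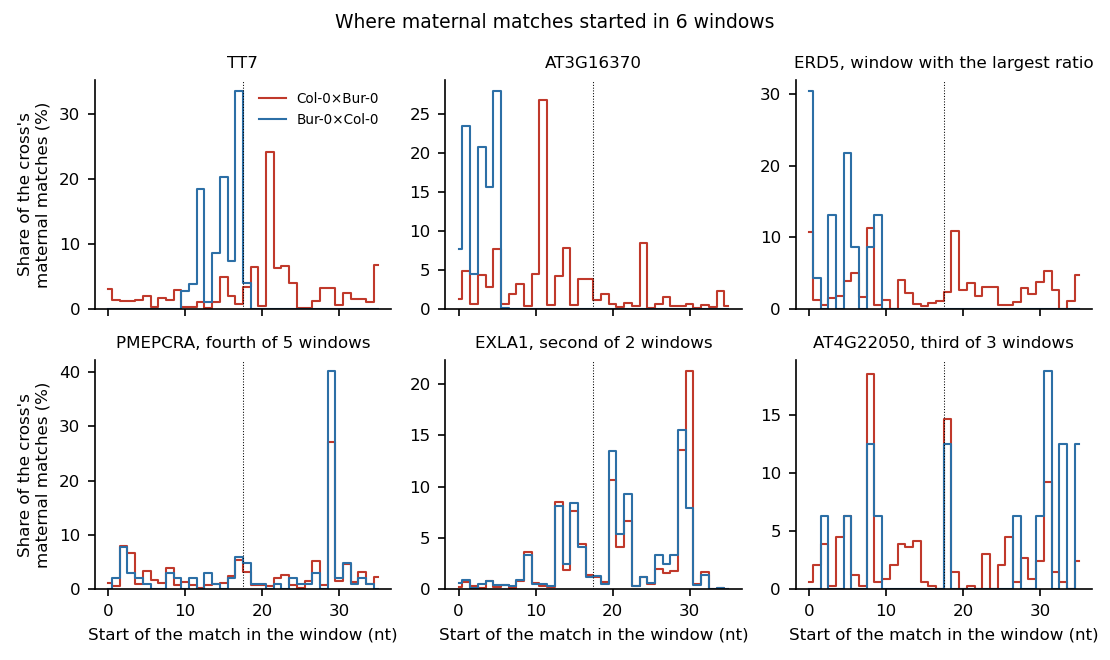
Share of the maternal matches of a cross (vertical axis, %) that began at each position of the window (horizontal axis, nt from its left end) in 6 Col-0-high windows, with a dotted line between both sides. In TT7, AT3G16370 and the ERD5 window with ratio 34.2 the Bur-0×Col-0 matches (blue) keep to one side and to 9, 7 and 7 positions, while in PMEPCRA, EXLA1 and AT4G22050 both crosses use both sides.

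The surroundings of a Col-0-high window were read from the other isolated windows 72 to 1000 nt away, which share no read with it. Other Col-0-high windows were included, here and within loci, so these values draw in part on ratios that the selection used. Such windows existed for 434 Col-0-high windows, and their median ratio was 2.67 at the median, against 1.46 over the isolated windows of the genome. It was at least 4 for 131, between 2 and 4 for 173 and under 2 for 130 windows. For 75 windows that were one-sided in Bur-0×Col-0 only, the median of the surroundings was 1.66, and for the 359 others 2.92. Within the same placed locus the corresponding values were 1.47 for 44 and 2.48 for 172 windows. Of the 44, 34 lay in a locus whose other isolated windows had a median under 2 and 2 in one with a median of at least 4.

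Surroundings also went with the size of the ratio. For Col-0-high windows with a ratio of at least 8 the surroundings, other Col-0-high windows included, had a median of 6.70. For those below 8 it was 2.50. Col-0-high windows also lay close to each other. Of 870 eligible windows that lay 72 to 1000 nt from another Col-0-high window, 178 were Col-0-high themselves, or 20.5% against 2.14% of all eligible windows. Windows this close can come from the same transcript in the same libraries, so they are not separate observations. Both windows of such a pair were chosen by the same ratio, and the share is a description only.

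Windows outside the selection were also high in these places, though any that reached a ratio of 4 had missed another criterion. Among all windows 72 to 1000 nt from a Col-0-high window that were not themselves Col-0-high and had at least 10 matches, 358 of 2707, or 13.2%, had a ratio of at least 4, against 7.53% of all such windows in the genome. Of the 2707, 61 had no maternal match in Bur-0×Col-0 and count as reaching 4. The median ratio of the 2707 was 1.40 against 1.07. Among neighbours with no matched SNP within 35 nt, 166 of 1014, or 16.4%, reached 4, with a median of 2.22. The minimum for all these values was 10 matches summed over both crosses. At this minimum, all windows of the genome with no matched SNP within 35 nt had a median of 1.46, and their share at 4 is not given here. With 10 matches in each cross and no limit on the maternal share, 4.03% of the isolated windows of the genome reached 4. That minimum is stricter, so the 16.4% and the 4.03% are not a like comparison.

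**Figure D5:**
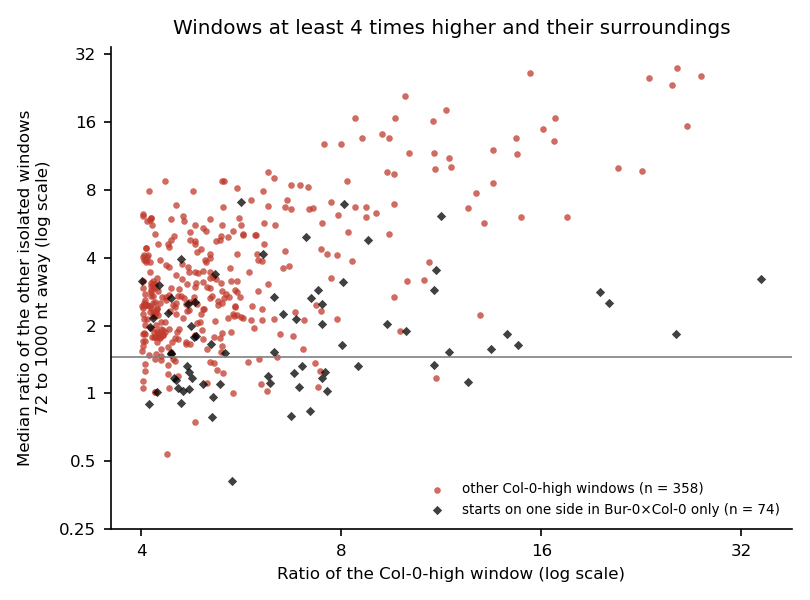
Ratio of each Col-0-high window (horizontal axis) and the median ratio of the other isolated windows 72 to 1000 nt away (vertical axis), both on a log scale. Other Col-0-high windows are included in the surroundings. The line is the median, 1.46, of all windows with no matched SNP within 35 nt and at least 10 matches over both crosses. Windows that were one-sided in Bur-0×Col-0 only (black) mostly lie low, with a median of 1.66, and the others (red) higher, with a median of 2.92, and 2 windows whose surroundings had a median with no maternal match in Bur-0×Col-0 are not drawn.

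When Col-0-high windows less than 1000 nt apart were joined, 440 runs resulted, of which 364 were single windows and 26 held 3 or more. Several of the clearest runs lay outside placed loci and have no gene name here. On chromosome 3, 5 windows between 9634106 and 9635526 had 743 maternal matches against 67, with ratios from 8.38 to 22.7. On the same chromosome, 4 windows between 824803 and 825611 had 716 against 60 and ratios from 11.01 to 17.5. None of these 9 windows was one-sided.

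Pairs of windows with very large ratios were found on chromosome 1, at 11295682 and 11296019, with 286 and 222 maternal matches against 13 and 11 and ratios of 27.9 and 25.6. On chromosome 5 the windows at 20541339 and 20541714 had 459 and 238 against 25 and 12 and ratios of 23.2 and 25.1. A lone window on chromosome 2, at 10838447, had 200 against 10 and a ratio of 25.3. These shallow counts in Bur-0×Col-0 leave wide intervals, such as 13.5 to 53.6 for the last.

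The windows were spread over all chromosomes. There were 167 on chromosome 1, 81 on chromosome 2, 105 on chromosome 3, 77 on chromosome 4 and 130 on chromosome 5. These were 2.39%, 2.15%, 2.06%, 1.84% and 2.11% of the eligible windows of each chromosome, whose median ratio was 1.43 to 1.45 throughout.

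Pathways of the maternal seed coat were examined as lists. Of 18 genes of the proanthocyanidin and flavonoid pathway, 13 were placed, with 40 isolated windows, of which 2 were Col-0-high, those of TT7 and BAN. Over all placed loci 2.37% of the isolated windows were Col-0-high, and 7.85% of the loci held such a window. The locus ratios of the 13 ran from 0.794 in FLS1, a flavonol synthase, to 2.39 in AHA10, a proton pump, with a median of 1.27 against 1.42 over all placed loci, and none reached 4. The sums of the 13 loci were 109295 maternal matches with a Col-0 mother against 108085.

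Of 11 mucilage genes of the seed coat epidermis, 5 were placed, with 25 isolated windows. MYB5 (AT3G13540), a transcription factor of the seed coat, held the only Col-0-high window of these, or 4% of the windows against 2.37% over all placed loci. That window had 61 against 15 maternal matches and a ratio of 5.15 (2.89 to 9.76), while the other 2 windows of MYB5 were at 1.64 and 1.78. The highest locus ratio of the list was 2.66 (2.59 to 2.73) in SBT1.7, a subtilisin-like protease needed for mucilage release, with no window past the limit. Markers of the endothelium, 4 of 6 with windows, had locus ratios from 0.938 to 2.39, and those of the epidermis, 2 of 5 with windows, 1.10 and 2.66. The part of the amount of seed coat in any of these ratios was not tested.

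Of 31 glucosinolate genes only FMOGS-OX2 and NSP5 were placed, with locus ratios of 0.322 and 1.51 and no Col-0-high window. None of 14 salicylate and immunity genes and none of 3 embryo markers was placed, so nothing can be said of them. Of 4 endosperm markers 2 had isolated windows, none of them Col-0-high. PHE1, an imprinted MADS-box gene, had 32 against 2 maternal matches and a locus ratio of 20.3 (5.17 to 174), but with 49 and 53 paternal matches it was far from the 90% maternal share the selection asked for. FWA, an imprinted homeobox gene, had 22 against 42 maternal matches and a ratio of 0.663. Of the 39 endosperm candidates of the study with maternal bias, 23 had isolated windows, with locus ratios from 0.188 in AGL96, a MADS-box gene, to 23.4 and a median of 1.47. Of their 51 isolated windows 7 were Col-0-high, in 4 of the 23 loci, or 13.7% of windows and 17.4% of loci against 2.37% and 7.85% over all placed loci. These were AT4G22050 and AT1G12180, given above, AT3G57250, with 67 against 12 matches in its 1 window, and AT5G46300, with 1 of 4 windows at 4.19 and a locus ratio of 1.86 (1.62 to 2.13). The study chose these candidates on the same libraries, so their maternal share is no independent evidence.

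The lanes separated the crosses in 543 of the 560 windows, in the sense that the lowest lane of Col-0×Bur-0 lay above the highest lane of Bur-0×Col-0 in maternal CPM. The windows were selected on the sum of these same lanes, so separation was largely set by the selection and is a description only. The 17 windows with overlapping lanes had at most 50 maternal matches in Bur-0×Col-0 and ratios up to 7.52. Lane 1 of Col-0×Bur-0 differed from the other lanes of its library. Counts of single windows in this lane varied against lanes 2 to 4 with 12.0 to 15.0 times the counting variance, and the remaining pairs of lanes within a cross with 0.976 to 1.52 times. The intervals given here do not cover this variation. The Col-0-high windows together had 20317 maternal CPM in this lane and 16452 to 17082 in lanes 2 to 4.

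In Bur-0×Col-0 the same sum was 2938 to 3060 CPM over all 4 lanes. Single windows could go either way. Lane 1 was at least 1.5 times the mean of lanes 2 to 4 in 151 windows, and in 64 it was at most 1/1.5 of it. In AT3G48460, the window with ratio 25.5 had 17.5 maternal CPM in lane 1 and 44.4 to 59.4 in lanes 2 to 4. Without this lane 495 windows met the criteria, 436 of them among the 560. Lane values are given here for some loci only. Summed over isolated windows, ERD5 had 2192 maternal CPM in lane 1 and 3582 to 3705 in lanes 2 to 4. MBP1 went the other way, with 422 in lane 1 and 266 to 295 in lanes 2 to 4. The part of this lane in the other ratios, and why it differed, was not tested.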

How the data were processed

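The authors sequenced 36-nt reads of 1 mRNA library per cross on 4 lanes and matched them with vmatch, with up to 2 mismatches, to 71-nt TAIR8 windows around SNPs in a Col-0 and a Bur-0 version, with only unique matches retained. The searched index held 569797 SNPs, as computed from the sequence number in the headers of the deposited files. The deposited files list each match with its window and start, are not normalized and give no count column. Counts per window, allele, cross and lane were made here by counting lines, and lanes were summed. Col-0 reads over neighbouring SNPs can match both Col-0 windows alike and are then not unique, which can lower Col-0 counts near other SNPs and the Col-0 part of the library total. The Bur-0 version of a window was the Col-0 sequence with only the SNP base changed. Any further Bur-0 difference in a read thus counted as a mismatch. Whether Bur-0 reads were lost in this way, in the one-sided windows or elsewhere, was not tested. Only windows with no matched SNP within 35 nt were used. The nearest matched SNP on either side was taken.

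The ratio is maternal matches per 1000000 library matches (CPM), Col-0×Bur-0 over Bur-0×Col-0, with a 95% exact (Clopper-Pearson) interval from the binomial split of both counts. Loci were placed where the summed counts of neighbouring windows equalled the locus counts in the study's supplementary tables, and ambiguous ones by the TAIR10.1 gene order. Of 2147 loci with counts 2054 were placed, 2025 of them by a single possible run. Only the spans and names were used. Symbols are those of TAIR10.1. No window sequence was read.

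The windows and the gene lists were chosen with earlier results of these data known. The genes named are the 10 loci with the most maternal matches over Col-0-high windows in Col-0×Bur-0, the loci of the 10 windows with the largest ratio, loci with 3 or more such windows, and list members with one, besides loci at the limit. MEE59, FLS1, AHA10, SBT1.7, FMOGS-OX2, NSP5, PHE1, FWA and AGL96 fall outside this rule and were named after their values were seen. The rule, the start positions and the placement were tested on simulated data. Alternatives in counting, scaling, lanes, limits and neighbours were run and are given at the end. The scripts ran under Python 3.11.15 with pandas 2.3.3 and NumPy 2.4.6, intervals came from SciPy 1.17.1, and plots from Matplotlib 3.10.9.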

Additional observations from a re-analysis of the deposited data

How the results depend on the processing

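No paired analysis was possible because each cross had 1 library. No result has a test, so only values are compared. Counting each start and strand once per lane, which caps deep windows by construction, gave 132 windows, 126 of them among the 560, 131 with lanes separated, 128 high neighbours and 22.2% of start positions, with locus ratios of 9.17 in AT4G22050, 4.58 in PMEPCRA (AT1G11580), 2.58 in MBP1 (AT1G52040), 2.07 in EXLA1 (AT3G45970) and 1.96 in SULTR2;1 (AT5G10180). A minimum of 20 matches gave 276 windows, 270 separated, 221 neighbours and 38.9%, and of 5 matches 912, 832, 538 and 19.4%. With the next SNP beyond 70 nt there were 326 windows, 316 separated and 229 neighbours with a median ratio of 1.72, and with a limit of 8, 85 windows, all 85 separated, and 135 neighbours with 2.05. Neighbours within 500 nt numbered 230, those with 20 matches had a median of 1.49, and without lane 1 or 3 of both crosses it was 1.499 and 1.504.

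Further settings were chosen after seeing the data. Scaled by reads searched, not by the read totals the study states, 323 windows remained, 316 separated, with a neighbour median of 1.21. By matches in isolated windows there were 251, 245, 201 high neighbours and 1.13, and by the eligible median 191, 187, 169 and 1.11, all 191 among the 560. Under these the share of Col-0-high among windows past either limit was 77.3%, 66.9% and 53.1%. With these 3 scalings AT2G17710 fell below 1, at 0.912, 0.841 and 0.756, and BAN (AT1G61720) with the last 2, at 0.997 and 0.897. Judging the next SNP downstream only gave a neighbour median of 1.27, and isolated neighbours alone 166 and 2.22. The other 53 values of the 5 main quantities moved by less than 1.5 times or within their interval. Without replicate libraries, depth in Bur-0×Col-0 limits most single ratios.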
